A study of Mus musculus with 74 samples.

Results

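Snai1 encodes Snail, a zinc-finger transcription factor that represses epithelial genes. It was followed here across 5 mouse cell lines and conditions and 5 times of TGF-β treatment. The gene was taken as every probe whose only symbol in the platform annotation is Snai1, which gave 1 probe (probe 5298) out of 8976 and 1 gene out of 5844 with such a probe. The probe was measured on all 74 arrays. Each array set RNA without TGF-β (channel 1) against RNA from cells of the same line given TGF-β (channel 2), as the channel labels read, and each value is the log2 ratio of the channels minus the median of its array. A value of 0 is therefore the ratio of the median probe on that array. The groups are S2WT, S3WT, S2KO, S3KO and U0126 at 0, 0.3, 1, 2 and 4 h. Every group has 3 arrays, apart from the 2 of S3KO at 1 h. At 0 h the channel labels name RNA without TGF-β on both sides, so these 15 arrays are the background.

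S2WT and S3WT are labelled as wild type and S2KO and S3KO as knockouts. The labels do not spell out S2 and S3. In the published study with this design they are Smad2 and Smad3, and the cells are mouse embryo fibroblasts, but the labels give neither. U0126 is an inhibitor of the kinase MEK. The titles of its arrays read as S2WT against U0126, while their channel labels put S2WT and U0126 together in both channels. The channel labels were followed here. Under the other reading the values given for U0126 would also contain the inhibitor. The source labels of the S2WT 4 h arrays say 2 h, and those of the S3KO 0.3 h arrays name no TGF-β in either channel, so the titles were used for these times. The labels state no dose, number of clones or separate cultures. A p-value therefore sets a difference only against the spread between arrays, and that spread can be technical. The direction of the ratio, TGF-β over no TGF-β, is not stated. It was taken as likely because the labels put the untreated RNA in channel 1 and the treated RNA in channel 2. If it ran the other way, every log2 value given here would change sign, higher and lower would trade places, and treated S2KO would hold the lowest Snai1 values instead of the highest. No value in a ratio within a line shows whether the knocked-out gene is missing.

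TGF-β binds a pair of receptor kinases that phosphorylate Smad2 and Smad3, which enter the nucleus with Smad4. Smad3 binds DNA directly, whereas the main form of Smad2 does not. Snail binds E-boxes, among them those of the promoter of the E-cadherin gene Cdh1, and is a textbook early TGF-β target in the change from epithelial to mesenchymal form. Fibroblasts are mesenchymal cells, which usually lack E-cadherin. The Snail protein is short-lived, because GSK3β marks it for destruction, so a ratio of its mRNA need not follow the protein.

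The 250 bases before the start of Snai1 are shown because they are where a response of transcription would be sought first, beside those of Gadd45b, the gene whose pattern was most like that of Snai1. Both are RefSeq sequences of the mouse build GRCm38.p6, on the plus strand, 5′ to 3′, with matches to the motifs searched in capitals. The Snai1 window is chr2:167537945-167538194 and that of Gadd45b is chr10:80929841-80930090.

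Snai1: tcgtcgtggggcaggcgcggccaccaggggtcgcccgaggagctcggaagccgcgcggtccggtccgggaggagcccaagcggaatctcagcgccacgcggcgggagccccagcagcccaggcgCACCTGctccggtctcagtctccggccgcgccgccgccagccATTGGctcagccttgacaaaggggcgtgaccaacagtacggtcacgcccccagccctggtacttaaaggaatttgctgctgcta

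Gadd45b: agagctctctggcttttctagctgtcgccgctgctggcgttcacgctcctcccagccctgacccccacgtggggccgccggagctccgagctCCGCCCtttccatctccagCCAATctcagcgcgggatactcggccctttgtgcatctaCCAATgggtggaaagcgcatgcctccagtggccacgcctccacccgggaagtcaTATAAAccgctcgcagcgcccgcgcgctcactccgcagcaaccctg

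The Snai1 window was 70.0% G or C, against a median of 52.4% over 32851 mouse promoters of the same length, and that of Gadd45b 65.2%. Each motif was sought on both strands, and no matches overlapped in these windows. The Snai1 window held 1 E-box of the kind Snail itself binds, CACCTG at bases 125 to 130. The letters CACCTG or CAGGTG are in 17.2% of all promoters. It also held 1 CCAAT box on the opposite strand (ATTGG, bases 167 to 171), a motif in 33.8% of promoters. The Smad core CAGAC (42.2% of promoters), the GC box GGGCGG (32.7%), the AP-1 site TGACTCA (4.46%), the cAMP response element TGACGTCA (1.55%) and the TATA box TATAAA (12.4%) had no match in it. The Gadd45b window held a TATA box, 2 CCAAT boxes and 1 GC box, and no CACCTG. Of the 10 genes most like Snai1, 9 are in the promoter table, of which 5 held CAGAC and 0 held CACCTG. These are matches of letters, not shown binding sites.

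The arrays gave values for 7688 to 8713 probes each, and the medians as deposited ran from -0.595 to 0.215 on the log2 scale. Channel intensities were not used here, so the number of arrays limits the precision. Over the 2244 probes measured on every array, 71 of the 74 arrays correlated above 0 with the mean background ratio of the lines other than S3KO at 0 h. The 3 that did not are S3KO arrays, namely 0 h replicates 1 and 2 (r = -0.156 and -0.101) and 1 h replicate 2 (r = -0.379). These are correlations across probes, which are not independent. The limma responses of Snai1 and differences between lines that rest on these arrays are given with and without them, a comparison added after the data were seen. The exact permutation tests were run only with them. Without them S3KO has 1 array at 0 h and 1 at 1 h, and that array is assumed to vary like the other groups. Since the 0 h means of the 5 lines are weighted equally, the remaining S3KO array at 0 h, at 1.79 for Snai1, then counts as much as the 3 arrays of another line. Of 13 fibroblast markers, 5 were measured (Col1a1, Col3a1, Pdgfra, Lum and Twist1), with 5 of 9 macrophage and leukocyte markers and 4 of 7 endothelial markers. Limma called 0 of the tested markers in any line against all 0 h arrays, with 1 to 3 of the 8 to 10 fibroblast probes and 0 or 1 of the 3 leukocyte and of the 5 or 6 endothelial probes at an unadjusted p under 0.05. Of all probes, between 0.0141% (S3KO) and 2.49% (S2KO) were called. The unadjusted p was under 0.05 on 366 of 7085 probes in S3KO and 1109 of 7444 in S2KO. The leukocyte marker Cd14 passed lower in U0126 (-1.84, adjusted p = 0.0170) without those 3 arrays. A ratio within a line does not show which cell type the cells are.

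The Snai1 probe read above 0 already in the background. At 0 h the 15 arrays ran from -0.77 to 1.79 with a median of 0.55, and 12 of 15 were above 0. Their mean was 0.49 (95% interval 0.26 to 0.72), which differed from 0 in limma's moderated test (adjusted p = 0.00127). Such a background was common, since 19.1% of the 7786 probes tested were called in the same comparison. The highest 0 h value, 1.79, and the lowest, -0.77, both came from S3KO, and without the highest the 0 h values ended at 1.08. Each response of Snai1 is therefore set against 0 h arrays rather than against 0. In RNA from a whole culture, more Snai1 RNA per cell and more cells with Snai1 RNA cannot be told apart.

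In S2WT, the 0 h values of Snai1 were -0.47, 0.65 and 0.37 in replicates 1, 2 and 3 (mean 0.18 ± 0.58, SD, n = 3). At 0.3 h they were 0.90, 1.03 and 0.60 (0.84 ± 0.22), and 2 of 3 lay above the highest 0 h array of the line. The ratios were largest at 1 h, at 1.93, 1.62 and 1.90 (1.82 ± 0.17). All 3 arrays at 1 h stood clear of the 0 h and 0.3 h arrays. At 2 h they were 1.25, 1.15 and 1.14 (1.18 ± 0.06), and at 4 h 1.33, 1.07 and 1.25 (1.22 ± 0.13). The values at 2 and 4 h overlapped each other and lay below every 1 h array, yet above every 0 h array of S2WT.

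S3WT, the other wild-type line, gave Snai1 values of 0.995, 0.36 and 0.76 at 0 h (0.70 ± 0.32) and 0.39, 0.52 and 0.87 at 0.3 h (0.59 ± 0.25). At 1 h its arrays read 1.00, 0.85 and 1.105 (0.985 ± 0.13). The 2 h arrays read 1.46, 0.51 and 1.10 (1.02 ± 0.48) and the 4 h arrays 0.19, 0.85 and 0.67 (0.57 ± 0.34). At each of these times the range overlapped that of the 0 h arrays, and 4 of the 9 arrays from 1 to 4 h were above the highest of them.

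In the likely direction of the ratio, S2KO had the highest Snai1 values of the series. At 0 h it gave 1.08, 0.42 and 0.55 (0.68 ± 0.35), and at 0.3 h 0.74, 0.92 and 1.58 (1.08 ± 0.45). At 1 h the values were 2.53, 3.21 and 2.65 (2.79 ± 0.36). They were 1.94, 1.59 and 2.625 at 2 h (2.05 ± 0.53) and 2.26, 1.90 and 2.13 at 4 h (2.10 ± 0.18). All 9 arrays from 1 to 4 h were above every 0 h array of S2KO, and 8 of 9 were above every 0 h array of any line. At 0.3 h the groups still overlapped.

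S3KO showed no such separation. Its 0 h arrays read -0.15, -0.77 and 1.79 (0.29 ± 1.34), the widest spread of the 25 groups, and its 0.3 h arrays 0.34, 0.65 and 0.58 (0.52 ± 0.16). At 1 h replicates 2 and 3 read -0.95 and 0.39 (-0.28 ± 0.95, n = 2). The 2 h values were 0.59, 0.42 and 0.64 (0.55 ± 0.12) and the 4 h values 0.66, 0.26 and 0.23 (0.38 ± 0.24). Of its 8 arrays from 1 to 4 h, 0 were above its highest 0 h array. The values at 2 and 4 h lay within 0.23 to 0.66, inside the range of the 0 h arrays of the other lines. Of the 3 arrays that stand apart, the 0 h ones hold both S3KO values below 0 at that time and the 1 h one holds the lowest Snai1 value of the series.

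The U0126 arrays gave 0.66, 0.755 and 0.32 at 0 h (0.58 ± 0.23) and 0.88, 0.76 and 1.00 at 0.3 h (0.88 ± 0.12). At 1 h they diverged, at 0.67, 2.10 and 1.83 (1.53 ± 0.76), with replicate 1 inside the 0 h range. The 2 h arrays read 1.26, 1.09 and 1.32 (1.22 ± 0.12) and the 4 h arrays 1.235, 0.99 and 0.91 (1.045 ± 0.17). Of the 9 arrays from 1 to 4 h, 8 were above every 0 h array of U0126.

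**Figure D1:**
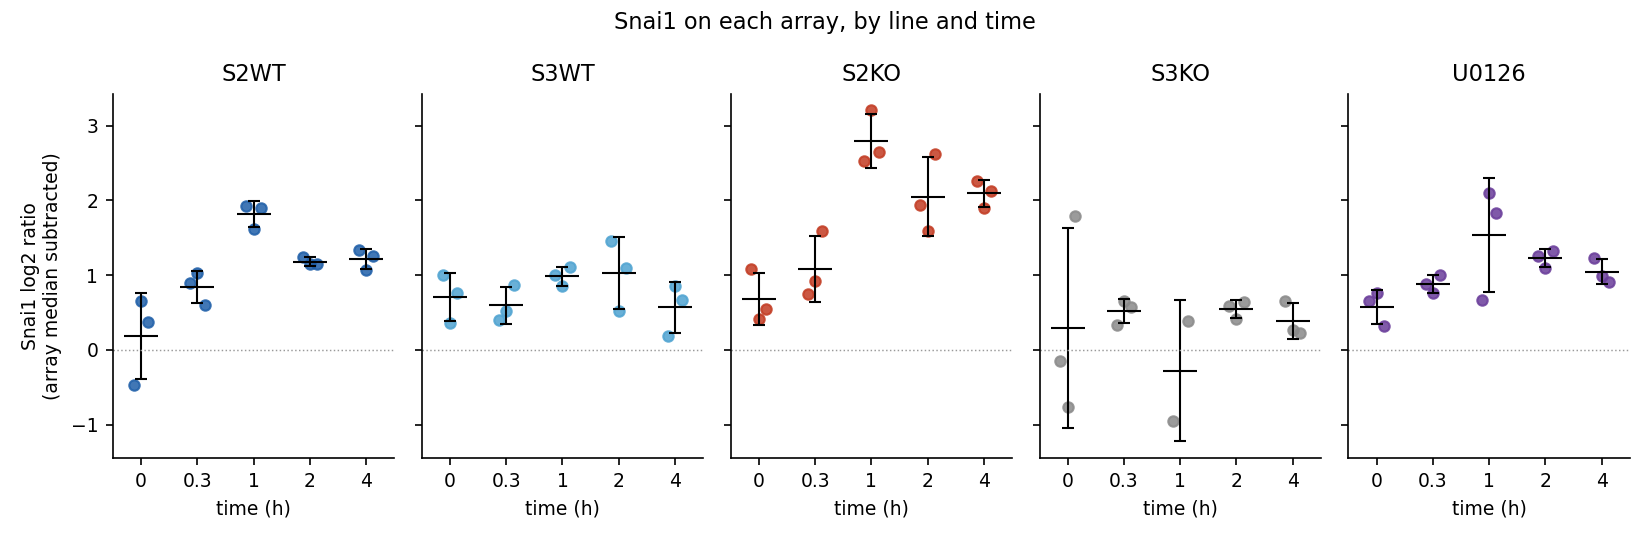
Snai1 log2 ratio (vertical axis, array median subtracted) against time in h (horizontal axis) in the 5 lines, with a point per array and the group mean ± SD as bars. S2KO reaches 2.79 at 1 h and S2WT 1.82, while S3KO from 1 to 4 h stays at or below 0.66.

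Ordered by mean, the 3 S2KO groups at 1, 4 and 2 h came first (2.79, 2.10 and 2.05), followed by S2WT at 1 h (1.82) and U0126 at 1 h (1.53). Then came U0126 at 2 h, S2WT at 4 h, S2WT at 2 h and S2KO at 0.3 h, between 1.22 and 1.08. U0126 at 4 h, S3WT at 2 h and S3WT at 1 h followed, between 1.045 and 0.985. The 0.3 h groups of U0126 (0.88) and S2WT (0.84) led the remaining groups. The 0 h groups of the 5 lines lay between 0.70 and 0.18, and all S3KO groups were in the last 6 places. S3KO at 1 h was last at -0.28. Of the 24 neighbouring pairs in this order, 1 differed by more than the pooled SD of its arrays without overlap, S2KO at 1 h over S2KO at 4 h (gap 0.70, SD 0.29).

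Within the lines, Snai1 rose in S2KO against either background and was not called in S3WT or S3KO. In S2WT and U0126 it was called against the 0 h arrays of all lines but not against their own. The late response is the mean of the 1, 2 and 4 h groups minus the 0 h arrays, with its SE, and a probe counts as called at an adjusted p under 0.05. Each SE uses a single spread of the probe, shared by all groups. The Snai1 SDs of S3KO at 0 h (1.34) and 1 h (0.95) were the largest of the groups. The SEs and intervals that involve these S3KO groups can therefore be too narrow. In S2KO the late response against its own 0 h arrays was 1.63 ± 0.29, a 3.10-fold higher ratio, or 0.323-fold if the ratio runs the other way (limma, adjusted p = 0.00272), where 0.515% of all probes were called. That call ended with arrays scaled to a common spread (1.37, adjusted p = 0.102) and in a fit on S2KO arrays alone (adjusted p = 0.384). Against the 0 h arrays of all 5 lines it was 1.83 ± 0.19 (adjusted p = 6.69e-10), with 2.49% of 7444 probes called and 1.91% called higher. In S2WT it was 1.22 ± 0.29 against own 0 h arrays, which did not pass (adjusted p = 0.053; 0.192% called). It passed with values above the cap kept, with probes measured on every array, with array weights and with a replicate block (adjusted p = 0.0352, 0.0272, 0.0138 and 0.0483). Against all 0 h arrays it was 0.92 ± 0.19, a 1.89-fold higher ratio (adjusted p = 0.00356), with 1.27% of probes called and 0.847% called higher, a call that ended with scaling (0.82, adjusted p = 0.0551).

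U0126 gave 0.69 ± 0.29 for Snai1 against own 0 h arrays (adjusted p = 0.642; 0.0719% called) and 0.78 ± 0.19 against all of them (adjusted p = 0.0274; 0.782% called, 0.437% higher). The latter call ended without centring (adjusted p = 0.056), over 2 and 4 h alone (0.65, adjusted p = 0.126) and with no S3KO arrays at 0 h (0.73, adjusted p = 0.0847). It also ended without U0126 1 h replicate 2 or 3, 2 h replicate 3 or 4 h replicate 1 (adjusted p up to 0.0811). S3WT gave 0.16 ± 0.29 (adjusted p = 1.00; 0.12% called) and 0.37 ± 0.19 (adjusted p = 0.598; 0.146% called, 0.119% higher). S3KO gave -0.07 ± 0.30 (adjusted p = 0.995; 1.53% called) and -0.27 ± 0.20 (adjusted p = 1.00; 0.0141% called). The 5 responses against all 0 h arrays share those arrays. Without the 3 S3KO arrays that stand apart, the mean of the shared 0 h arrays is higher. The response was then 1.53 in S2KO (adjusted p = 1.56e-09), 0.62 in S2WT (adjusted p = 0.027) and 0.48 in U0126, where the call ended (adjusted p = 0.128). It was 0.07 in S3WT (adjusted p = 0.951) and -0.35 in S3KO (adjusted p = 1.00). The S3KO response against its own 0 h array, the single value of 1.79, was then -1.35 (adjusted p = 0.0584).

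A two-sided exact permutation test of the Snai1 values alone, late against own 0 h arrays, gave p = 0.004545 in S2WT and in S2KO, the smallest it can give (adjusted over the 5 lines, 0.01136 each). U0126 gave p = 0.0364 (adjusted p = 0.0606), S3WT 0.527 (adjusted p = 0.659) and S3KO 0.994 (adjusted p = 0.994) in the same exact test. The S3KO test includes the arrays that stand apart and was not run without them.

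At 1 h alone, Snai1 was the only probe called in S2KO out of 8520 (0.0117%), at 2.11 ± 0.36 against own 0 h arrays, a 4.32-fold higher ratio (limma, adjusted p = 0.00275). In S2WT it stood at 1.63 ± 0.36, a 3.10-fold higher ratio (adjusted p = 0.0445; 0.0812% of probes called). That call was lost in 4 of the 6 fits that left out an array, namely 0 h replicate 1 or 3 or 1 h replicate 1 or 3, with an adjusted p up to 0.414. It was also lost without centring (1.47, adjusted p = 0.174) and with the replicate number as a block (1.63, adjusted p = 0.0616), and the calls of both lines at 1 h ended with scaling (adjusted p = 0.164 and 0.105) and in fits on a single line (adjusted p = 0.157 in S2WT and 0.257 in S2KO). The 1 h value was 0.95 ± 0.36 in U0126 (adjusted p = 0.627; 0.0582% called), 0.28 ± 0.36 in S3WT (adjusted p = 1; 0.0116% called) and -0.57 ± 0.40 in S3KO (adjusted p = 1.00; 0.341% called). None of these 3 passed.

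At 2 h Snai1 passed in S2KO (1.37 ± 0.36, adjusted p = 0.0447; 0.933% called). It did not in S2WT (1.00, adjusted p = 0.433; 0.035% called), U0126 (0.65, adjusted p = 0.955; 0.0583%), S3WT (0.32, adjusted p = 1.00; 0.0937%) or S3KO (0.26, adjusted p = 0.96; 0.555%). At 4 h it again passed in S2KO (1.41 ± 0.36, adjusted p = 0.0331; 0.899% called). The 4 h values were 1.03 in S2WT (adjusted p = 0.259; 0.383%), 0.47 in U0126 (adjusted p = 1.00; 0.29%), -0.14 in S3WT (adjusted p = 1; 0.244%) and 0.09 in S3KO (adjusted p = 0.984; 0.423%). Each of the S2KO calls at 2 and 4 h held in 2 of 6 fits that left out an array. They were lost without 0 h replicate 2 or 3 or without replicate 1 or 3 of the treated time, with an adjusted p up to 0.193 at 2 h and 0.205 at 4 h. Scaling ended both (adjusted p = 0.498 and 0.524), and so did a fit on S2KO arrays alone (adjusted p = 0.397 and 0.536).

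At 0.3 h the difference from own 0 h arrays was 0.66 ± 0.36 in S2WT, 0.40 in S2KO, 0.30 in U0126, 0.23 in S3KO and -0.11 in S3WT, with the same SE. From 1 to 4 h the Snai1 ratio differed by -0.60 in S2WT (95% interval -1.32 to 0.12) and by -0.70 in S2KO (-1.42 to 0.02). It differed by -0.49 in U0126 (-1.21 to 0.23), by -0.42 in S3WT (-1.14 to 0.30) and by 0.66 in S3KO (-0.15 to 1.47). All 5 intervals hold 0, so a decline after 1 h was not resolved in any line. With the 3 S3KO arrays that stand apart left out, S3KO stood at -1.27, -1.40, -1.24 and -1.41 at 0.3, 1, 2 and 4 h against its remaining 0 h array. The 1 to 4 h difference was then -0.0073.

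**Figure D2:**
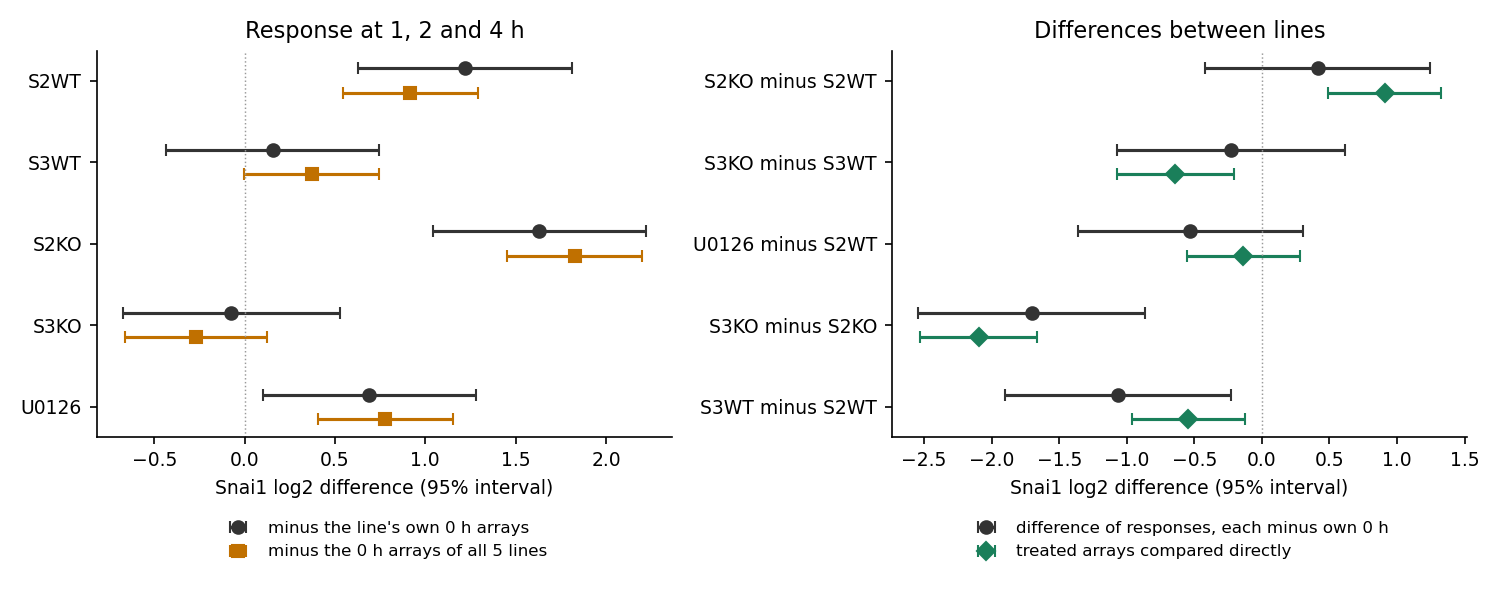
Snai1 log2 differences (horizontal axis) with 95% intervals, as late responses of each line against own or all 0 h arrays (left) and as differences between lines (right). S2KO lies highest at 1.63 and 1.83 and S3KO minus S2KO lowest at -1.70 and -2.10.

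Between lines, the Snai1 ratio was higher in treated S2KO than in treated S2WT. Ratios within a line do not show which line holds more Snai1 RNA. At 1 h S2KO spanned 2.53 to 3.21 and S2WT 1.62 to 1.93. The ranges did not overlap at 2 or 4 h either, whereas at 0 h they did. Compared directly over 1, 2 and 4 h, S2KO was higher by 0.91 ± 0.21, a 1.88-fold difference of ratios (95% interval 0.49 to 1.33, limma adjusted p = 0.0276), where 0.326% of probes were called. Without any of 5 arrays in turn (S2KO 1 h replicate 2, 2 h replicate 3, 4 h replicates 1 and 3, and S2WT 2 h replicate 1) this call was lost, with values of 0.81 to 0.92 and an adjusted p up to 0.0701. It also ended with scaling (0.70, adjusted p = 0.504) and in a fit on the lines compared alone (adjusted p = 0.136). The direct comparison keeps the difference of the backgrounds. With each line set against its own 0 h arrays, the difference of responses was 0.41 (-0.42 to 1.25, adjusted p = 0.893; 0.0386% called), so a larger response in S2KO than in S2WT was not resolved.

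The Snai1 ratio was lower in S3KO than in S2KO. The 9 late S2KO arrays began at 1.59 and the 8 late S3KO arrays ended at 0.66. The direct difference was -2.10 ± 0.22 (-2.53 to -1.66, limma adjusted p = 2.6e-09), a 4.28-fold lower ratio and the smallest p of the 7427 probes tested, of which 1.51% were called. As a difference of responses it was -1.70 (-2.55 to -0.86, adjusted p = 0.0537; 0.227% called). Without the 3 S3KO arrays that stand apart these values were -1.87 (adjusted p = 8.71e-10) and -2.98 (adjusted p = 8.94e-06). The latter rests on the single S3KO 0 h array at 1.79.

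Set against its labelled wild type, S3KO differed from S3WT by -0.64 ± 0.22 directly (-1.07 to -0.21, limma adjusted p = 0.509) and by -0.23 as a difference of responses (-1.07 to 0.61, adjusted p = 0.949; 0.126% called). In the direct comparison limma called 0 probes (0%), with 448 at an unadjusted p under 0.05. The values were -0.42 (adjusted p = 0.694) and -1.51 (adjusted p = 0.113) without the 3 S3KO arrays. U0126 differed from S2WT by -0.14 ± 0.21 directly (-0.55 to 0.28, adjusted p = 0.999; 0 called, 398 at an unadjusted p under 0.05) and by -0.53 as a difference of responses (-1.36 to 0.30, adjusted p = 0.951; 0.0252% called). Both intervals hold 0, and they reach down to -0.55 and -1.36.

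The wild-type lines were compared in the same way. S3WT read -0.55 ± 0.21 against S2WT directly (-0.96 to -0.13, limma adjusted p = 0.2; 0.209% called) and -1.06 as a difference of responses (-1.90 to -0.23, adjusted p = 0.726; 0 called, 419 at an unadjusted p under 0.05). Neither passed over all probes. For Snai1 alone, a two-sided exact permutation test of the late arrays within times gave p = 0.0025 for this pair (0.00417 adjusted over 5 pairs). The same exact test gave p = 0.00025 for S2KO against S2WT and for S3KO against S2KO, the smallest it can give (0.000625 adjusted). It gave 0.007 for S3KO against S3WT (0.00875 adjusted) and 0.485 for U0126 against S2WT (0.485 adjusted). This test compares treated arrays without their 0 h background. For both S3KO pairs it includes S3KO 1 h replicate 2, at -0.95, and it was not run without that array. The 5 pairs share lines, S2WT in 3 of them, and are not independent.

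Over the 25 groups, 10 genes followed Snai1 most closely. Likeness was Pearson's r between group means, taken over 4276 genes whose probe was measured on at least 2 arrays of every group, and it is given as a description, since groups of a line share a background. The median gene had r = 0.0138. Gadd45b, a stress-inducible gene of growth arrest, was most like Snai1 (r = 0.926, Spearman 0.906, and r = 0.85 over the 74 arrays). Its S2KO mean was 0.81 at 0 h and then 2.60, 2.55 and 2.43 at 1, 2 and 4 h. The change from 1 to 4 h was -0.17 (limma, adjusted p = 0.998), so a decline was not resolved, nor was it for Snai1. Against all 0 h arrays Gadd45b rose by 2.07 in S2KO, 1.35 in S2WT, 0.95 in S3WT and 0.82 in U0126 and stood at -0.03 in S3KO. Its adjusted p in S3WT was 0.0414. Since Gadd45b was chosen for its likeness over these groups, these values are a description. Without the 3 S3KO arrays that stand apart, Gadd45b had r = 0.844 with Snai1 and was no longer called in S3WT (0.82, adjusted p = 0.0802) or U0126 (0.69, adjusted p = 0.125).

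Next came Gpsm1, a regulator of G-protein signalling (r = 0.858), Eif2b2, a subunit of a translation initiation factor (0.818), the membrane protein gene Tmem119 (0.804) and Irf2bpl (0.804). Dnlz (0.78), Jarid2, a component of a Polycomb complex (0.771), the kinase gene Nuak1 (0.768), Sertad4 (0.756) and Stx8, a syntaxin of vesicle fusion (0.735), completed the 10, and the next gene had 0.73. By Spearman's rho over groups 6 of these 10 were again among the first 10, and by r over arrays 5 of 10. Nuak1 had r = 0.384 over arrays. For the 9 genes after Gadd45b, r over groups was from 0.516 (Nuak1) to 0.799 (Gpsm1) without the 3 S3KO arrays. Apart from Nuak1, which stood at 0.68 (adjusted p = 0.108), each of the 10 passed in S2KO against all 0 h arrays, with values from 0.63 (Irf2bpl) to 2.07 (Gadd45b). In S2WT 2 of the 10 passed, Gadd45b and Tmem119 (0.62, adjusted p = 0.0213), the latter not without the 3 S3KO arrays (0.49, adjusted p = 0.128). The rule used these S2KO group means, so this count supports nothing further.

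**Figure D3:**
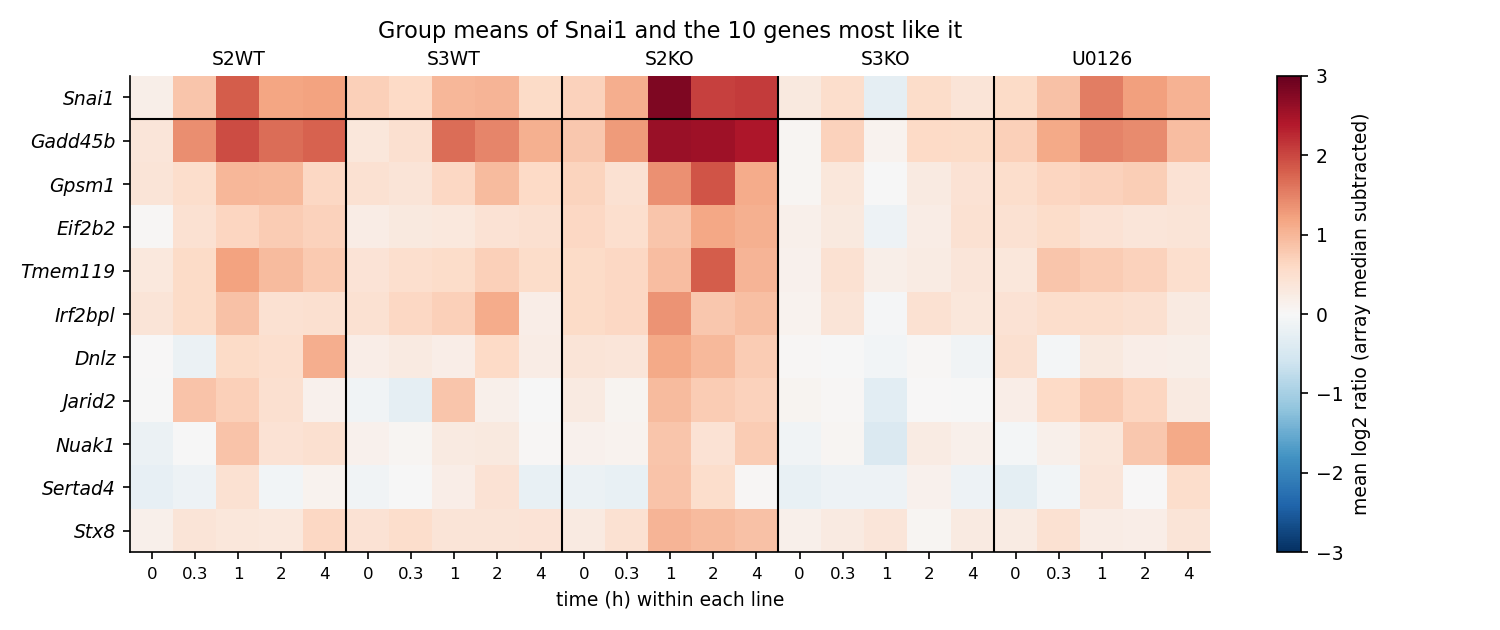
Mean log2 ratio (colour, array median subtracted) of Snai1 and the 10 genes most like it, by line and time in h. In S2KO, Snai1 is at 2.79 at 1 h and Gadd45b at 2.60, and both are below 1 at every S3KO time.

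The genes around Snai1 in its pathway were then read from fixed lists, always as late responses against all 0 h arrays, beside a median over all probes within 0.01 of 0 in each line. The order runs from other transcription factors of the epithelial to mesenchymal change to epithelial and mesenchymal genes. Genes for Snail's partners and the TGF-β pathway above Snai1 follow. Of 17 other transcription factors of the epithelial to mesenchymal change, 7 were measured and 6 tested in S2WT and S2KO, and limma called 0 in any of the 5 lines. Of all probes, 1.27% were called in S2WT, 2.49% in S2KO, 0.146% in S3WT, 0.782% in U0126 and 0.0141% in S3KO. At these shares, 0 calls on so few probes do not set the list apart. The unadjusted p was under 0.05 on 930 of 7555 probes in S2WT and 1109 of 7444 in S2KO. It was so on 636 of 7558 in S3WT, 799 of 7543 in U0126 and 366 of 7085 in S3KO. The probes for Twist1, a helix-loop-helix factor, stood at -0.15 and -0.14 in S2WT and -0.04 and -0.10 in S2KO, and the unadjusted p was under 0.05 on 0 of 9 probes of the list in S2WT, 1 of 9 in S2KO, 2 of 9 in S3WT and U0126 and 1 of 7 in S3KO. The list's median was -0.15 in S2WT and -0.01 in S2KO, against 0.92 and 1.83 for Snai1. In S2KO, Sox9 stood at 0.40 (adjusted p = 0.25) and the forkhead factor gene Foxc2, named after its value was seen, at 0.87 (adjusted p = 0.349). Snai2, Snai3, Zeb1 and Zeb2 were not analysed here.

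Among the epithelial genes, a general list that includes the Snail target Cdh1, 19 of 49 were measured. In S2WT 1 of 15 tested genes passed, Cgn, which encodes cingulin of the tight junction and fell by 1.27 on the log2 scale (SE 0.33, adjusted p = 0.037), where 0.424% of all probes were called lower. It also passed in U0126 (-1.25, adjusted p = 0.04; 0.345% called lower), stood at -1.02 in S3WT (adjusted p = 0.29) and was not tested in S2KO. Neither call was kept without the 3 S3KO arrays (-1.03 in S2WT, adjusted p = 0.131, and -1.01 in U0126, adjusted p = 0.125). Cdh1, the E-cadherin gene, was not tested in S2WT for want of arrays and stood at 0.73 ± 0.44 in S2KO (adjusted p = 0.47). In S2KO, where the Snai1 ratio was highest, 0 of 14 tested epithelial genes passed in limma's test. Of their probes, 3 of 16 had an unadjusted p under 0.05, against 1109 of 7444 over all probes. At the adjusted threshold, 2.49% of all probes were called there and 0.578% called lower. Tjp1, a scaffold of the tight junction, stood at -1.21 ± 0.42 there (adjusted p = 0.13).

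Of 32 mesenchymal genes 16 were measured. The integrin gene Itgb1 rose by 0.57 in S2WT (adjusted p = 0.021), 0.58 in S2KO (adjusted p = 0.01) and 0.58 in U0126 (adjusted p = 0.027) on 1 of its 2 probes, while the other probe stood at 0.11, -0.18 and 0.09. Itga5, the fibronectin receptor subunit, rose by 0.59 in S2KO (adjusted p = 0.041). These were the only mesenchymal calls against all 0 h arrays. They cover 1 of 29 probes in S2WT, 2 of 29 in S2KO and 1 of 29 in U0126. Of all probes, 0.847%, 1.91% and 0.437% were called higher in these lines. Against these arrays no mesenchymal call was made in S3WT, where 0.119% of all probes were called higher and 0.0265% lower. None was made in S3KO either, where 0.0141% of all probes were called. In S3WT and S3KO, 3 of 29 and 4 of 28 mesenchymal probes had an unadjusted p under 0.05, against 636 of 7558 and 366 of 7085 over all probes. No mesenchymal gene passed without the 3 S3KO arrays, with Itgb1 at 0.51, 0.52 and 0.52 (adjusted p = 0.0872, 0.0583 and 0.0849) and Itga5 at 0.57 (adjusted p = 0.0943). The N-cadherin gene Cdh2 (0.18 and -0.20 in S2WT, -0.16 and -0.05 in S2KO) and the fibronectin gene Fn1 (-0.17 and 0.02) did not pass. Tnc, named after its value was seen, stood at 0.55 in S3KO against all 0 h arrays (limma, adjusted p = 0.831). Against the S3KO 0 h arrays alone, which include arrays that stand apart, it was called at 2.33 (limma, adjusted p = 0.00106). In that comparison 1.53% of all probes were called.

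Among the genes for Snail's partners and turnover 25 of 41 were measured and limma called 0 in S2WT, S3WT, S2KO and S3KO, with 3, 4, 6 and 0 of their 37 or 38 probes at an unadjusted p under 0.05. Of all probes, 1.27%, 0.146%, 2.49% and 0.0141% were called in these lines. The unadjusted p was under 0.05 on 930 of 7555, 636 of 7558, 1109 of 7444 and 366 of 7085 of them. The 4 probes of Gsk3b, whose product is the kinase that marks Snail for destruction, did not respond alike. In U0126, where 0.345% of all probes were called lower, probe 6410 fell by 1.00 (adjusted p = 0.0002). Probes 1358 and 3416 stood at -0.31 and -0.23 there, and the last was not tested. Ctdsp1, a phosphatase gene named here after its value was seen, also fell in U0126, by 0.67 (adjusted p = 0.042), on 1 of 2 probes. When the 3 S3KO arrays were left out, the Gsk3b call held (-0.89, adjusted p = 0.00203) and that of Ctdsp1 did not (-0.60, adjusted p = 0.104). Ehmt2, a histone methyltransferase gene, was then called lower in S3WT on 1 of 3 probes (-0.64, adjusted p = 0.0154).

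In the pathway above Snai1, 20 of 43 genes for TGF-β ligands, receptors, Smads and their regulators were measured. In S2KO 5 passed higher and 2 lower, of 19 tested, where 1.91% and 0.578% of all probes did. Tgfbr1, the type I receptor, rose by 1.06 (adjusted p = 6.9e-05), and Skil, whose product is the Smad corepressor SnoN, by 1.22 (adjusted p = 9.1e-08). The ubiquitin ligase genes Smurf1 and Smurf2 rose by 0.62 and 0.41 and the receptor gene Acvr1 by 0.52, and the coreceptor genes Eng and Tgfbr3 fell by 1.08 and 1.10. The other probes of Tgfbr3 stood at -0.41 and -0.21 there (adjusted p = 0.18 and 0.68). In S2WT Smurf1 (0.45), Smurf2 (0.37) and the corepressor gene Tgif1 (0.47) passed higher and Tgfbr3 lower on 2 of 3 probes (-1.24 and -0.79), where 0.847% and 0.424% of all probes were called higher and lower. Smurf2 passed on 1 of 3 probes, also in U0126 (0.35). Smad3 stood at -0.05 in S2WT and at -0.13 and -0.25 on 2 probes in S2KO, and the inhibitory Smad7 at 0.41 in both (adjusted p = 0.17 and 0.13). Limma called 0 of these genes in S3WT and S3KO, with 9 and 4 of 27 probes at an unadjusted p under 0.05. Of all probes, 0.146% and 0.0141% were called there, and 636 of 7558 and 366 of 7085 had an unadjusted p under 0.05. Of the 7 genes called in S2KO, 6 were called again without the 3 S3KO arrays, and the Tgfbr3 probe that had passed was not tested. In S2WT 2 of 4 were called again, Smurf2 and Tgfbr3, but not Smurf1 (0.35, adjusted p = 0.107) or Tgif1 (0.48, adjusted p = 0.0713).

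Most of the calls on list members fell among the early TGF-β and immediate early genes. This list was chosen with earlier results of these data known, so its counts and medians are only a description. Of 39, 21 were measured and 19 tested. In S2KO 13 passed, with a list median of 0.85, where 2.49% of all probes were called. In S2WT 5 passed (median 0.37; 1.27% of all probes), in S3WT 5 (0.52; 0.146%), in U0126 2 (0.33; 0.782%) and in S3KO 0 (0.04; 0.0141%), and every call was higher. Skil, called in S2KO, is counted in this list and in the one before. In S3KO 0 of 21 probes had an unadjusted p under 0.05. Leaving out the 3 S3KO arrays gave counts of 10 in S2KO, 4 in S2WT, 4 in S3WT, 1 in U0126 and 0 in S3KO, all among the genes called before. The shares of all probes called were then 1.73%, 0.946%, 0.269%, 0.758% and 0.165%. Hbegf, a growth factor that activates the EGF receptor, rose by 2.23 in S2KO, 1.81 in S2WT, 1.36 in S3WT and 1.15 in U0126 and stood at 0.12 in S3KO. Rhob, a small GTPase gene, rose by 1.13 in S2KO (adjusted p = 0.00055) and stood at 0.25 in S2WT (adjusted p = 0.69). In S2WT the calls were Hbegf, Gadd45b, Noct, Ier2 and Bhlhe40, and in S3WT Hbegf, Gadd45b, Noct, Bhlhe40 and Klf10. Noct, Ier2, Bhlhe40 and Klf10 are named after their values were seen. Of 34 feedback and target genes of the MEK and ERK kinases 10 were measured, and limma called 0 in any line, with 2 of 11 probes in S2WT, 0 in S3WT and S2KO, 1 in S3KO and 3 in U0126 at an unadjusted p under 0.05. Braf, named after its value was seen, stood at 0.81 in U0126 on 1 of 2 probes (adjusted p = 0.057) and passed there without the 3 S3KO arrays (0.92, adjusted p = 0.0408).

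**Figure D4:**
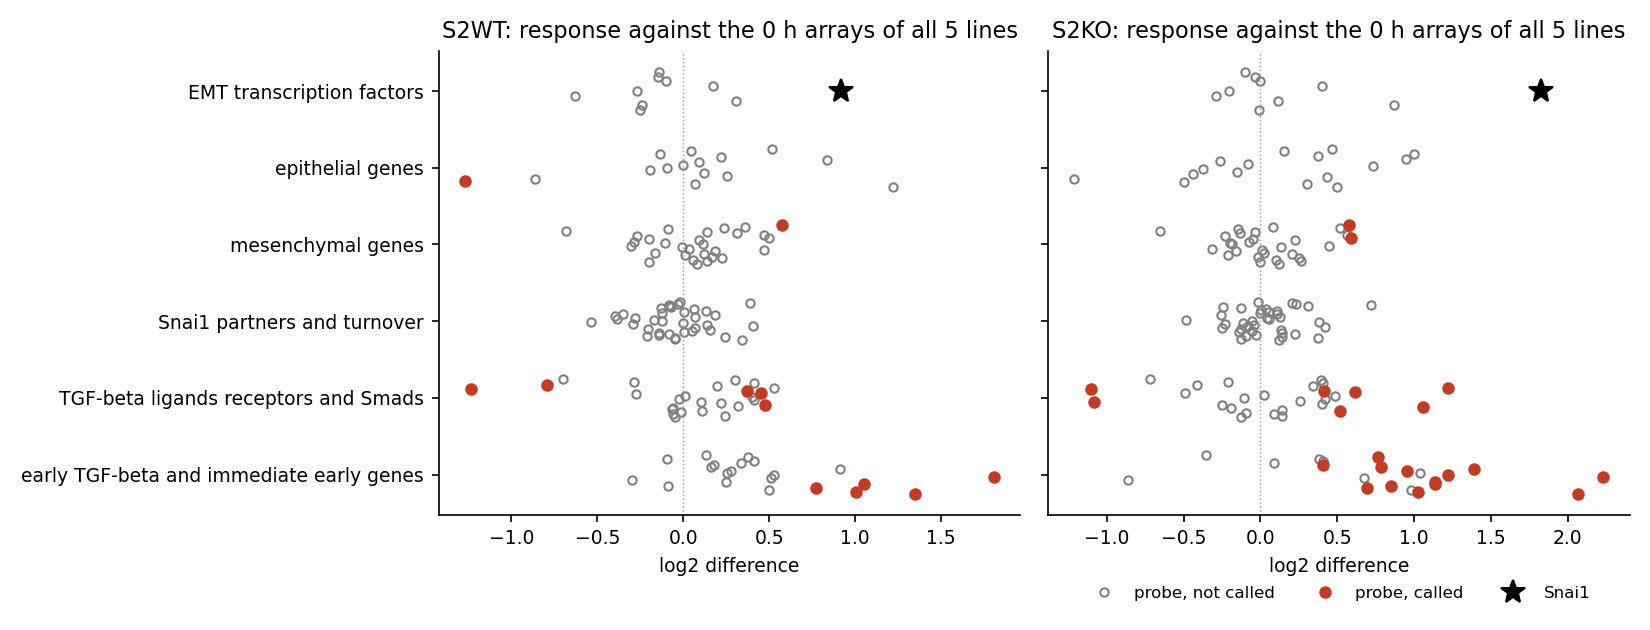
Late response against all 0 h arrays (log2, horizontal axis) of each tested probe of 6 gene lists in S2WT (left) and S2KO (right), filled where called, with Snai1 as a star. Snai1 at 0.92 and 1.83 stands above every other transcription factor probe of its list, which are all open.

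Snai1 lies on chromosome 2. Of its 5 nearest genes on either side in the RefSeq table, Rnf114 was the only one tested, at -0.01 in S2KO (adjusted p = 0.993) and -0.58 in S2WT (adjusted p = 0.491).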

How the data were processed

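Each of the 74 dual-channel arrays came as a column of log2 ratios in the deposited table, already processed by the authors. Dyes, scanner, background correction, normalisation and slide or scan batches are not given in the sources consulted. Values above 16.6, of which there were 1344, all at 16.61 and taken as ratios with an empty denominator, were set to missing, and each array's median was subtracted. Probe symbols came from the platform annotation, with 7348 probes naming a single gene, 399 several and 1229 none, and 7274 of the former matched the RefSeq gene table. Group means were fitted over all 74 arrays with variances moderated by limma 3.58.1 in R 4.3.3, checked on simulated data. A probe was tested where at least 2 arrays of each group measured it, with Benjamini-Hochberg adjustment over all probes tested. Named genes were the 10 most like Snai1, the list members with the smallest p and a set always shown. Snai1, the lists and the tests were chosen with earlier results of these data known. Alternatives changed centring, scaling, the cap, probe coverage, array weights, replicate block, lines fitted, the times, the 0 h arrays, and left out each array.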

Additional observations from a re-analysis of the deposited data

Results flagged for a closer look

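The Snai1 ratio differed between lines under the same treatment in the direct comparison of late arrays. It was higher in S2KO than in S2WT by 0.91 (limma, adjusted p = 0.0276), and the difference of the responses, each against its own 0 h arrays, was 0.41 (adjusted p = 0.893). It was lower in S3KO than in S2KO, at -2.10 (limma, adjusted p = 2.6e-09), with a difference of responses of -1.70 (adjusted p = 0.0537). Of the 9 late arrays of S2KO, 9 were above the highest 0 h array of their line, and of the 8 of S3KO, 0 were. Whether the background at 0 h takes part in either difference was not tested beyond these values.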

How the results depend on the processing

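Across the alternatives, 790 comparisons of a Snai1 value with the reported value kept its direction and side of the threshold, 41 lost a call, 20 gained one and 26 changed sign. The rise in S2KO against all 0 h arrays and the lower ratio of S3KO than of S2KO, compared directly, were called under every alternative run. Without centring, the U0126 response against all 0 h arrays was 0.78 with an adjusted p of 0.056, and U0126 minus S2WT compared directly was 0.0447. With arrays scaled to a common spread, the S2KO response against own 0 h arrays was 1.37 (adjusted p = 0.102), the S2WT response against all 0 h arrays 0.82 (adjusted p = 0.0551), S2KO minus S2WT directly 0.70 (adjusted p = 0.504) and U0126 minus S2WT directly 0.0438. The S2WT response against own 0 h arrays passed with values above the cap kept (1.22, adjusted p = 0.0352), with probes measured on every array (1.22, adjusted p = 0.0272) and with array weights (1.09, adjusted p = 0.0138). The difference of responses of S3KO and S2KO, at -1.70, passed under the same 3 settings (adjusted p = 0.0449, 0.0412 and 0.043). With weights, the S3KO response was 0.10 and U0126 minus S2WT directly 0.00014. Fitted on the lines compared alone, with fewer arrays, the S2KO response was 1.63 (adjusted p = 0.384) and S2KO minus S2WT directly 0.91 (adjusted p = 0.136). Without 0 h arrays, the treated arrays of S2WT (1.40), S3WT (0.86) and U0126 (1.27) all passed against 0, and S3KO stood at 0.22. Such calls were common, at 1960 of 8470 probes in S2WT, 733 of 8506 in S3WT and 1214 of 8504 in U0126. They keep the background, which for Snai1 averaged 0.70 in the S3WT 0 h arrays. Over 2 and 4 h alone, the responses against all 0 h arrays were 0.71 in S2WT (adjusted p = 0.074) and 0.65 in U0126 (adjusted p = 0.126), and S3KO stood at 0.18 against its own. With no S3KO arrays among the 0 h arrays, U0126 was at 0.73 (adjusted p = 0.0847). Without the 3 S3KO arrays that stand apart, chosen after seeing the data, U0126 was at 0.48 (adjusted p = 0.128), the difference of responses of S3KO and S2KO at -2.98 (adjusted p = 8.94e-06), S3KO at -1.27, -1.24 and -1.41 at 0.3, 2 and 4 h and its change from 1 to 4 h at -0.0073. The cause of these shifts was not tested.

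Leaving out each array in turn, the late responses against own 0 h arrays ran from 0.89 to 1.45 in S2WT (called in 2 of 12 fits), -0.017 to 0.30 in S3WT, 1.498 to 1.83 in S2KO (12 of 12), -0.60 to 0.68 in S3KO and 0.56 to 0.83 in U0126. Against all 0 h arrays they ran from 0.81 to 1.07 in S2WT (24 of 24), 1.72 to 1.98 in S2KO (24 of 24) and 0.67 to 0.93 in U0126 (20 of 24, lost without 1 h replicate 2 or 3, 2 h replicate 3 or 4 h replicate 1). Differences of responses ran from -0.76 to 0.52 for S3KO minus S3WT and -2.23 to -0.95 for S3KO minus S2KO (6 of 23). Direct differences ran from 0.81 to 0.99 for S2KO minus S2WT (13 of 18), -0.23 to 0.0071 for U0126 minus S2WT and -2.32 to -1.87 for S3KO minus S2KO (17 of 17). Against own 0 h arrays, S3WT ran from -0.28 to 0.036 at 0.3 h and -0.31 to 0.053 at 4 h, and S3KO from -0.30 to 0.98 at 0.3 h, -1.24 to 0.18 at 1 h, -0.27 to 1.01 at 2 h, -0.44 to 0.84 at 4 h and -0.0073 to 1.33 from 1 to 4 h.

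With the replicate number of a line as a block, the S2WT response against own 0 h arrays was 1.22 with an adjusted p of 0.0483, and its 1 h value 1.63 with 0.0616. Deviations of same-numbered arrays correlated above 0.1 in 16 of 30 pairs in S2WT and 9 of 30 in S3WT. The counts were 20 of 30 in S2KO, 17 of 26 in S3KO and 7 of 30 in U0126. In each line the median correlation of same-numbered arrays was above 0, from 0.0134 in U0126 to 0.172 in S2KO. The median of differently numbered arrays was -0.0156 in U0126 and -0.0989 in S2KO. Deviations within a group sum to 0, which by itself gives the differently numbered arrays the other sign, so they add no evidence. Whether the numbers pair the arrays was not settled, and the main fits treated the arrays as independent. The block changed no other call on Snai1. Direct comparisons between lines and comparisons with all 0 h arrays could not be fitted with it, whereas differences of responses could.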
